A study of Mus musculus with 18 samples.

Results

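Gene expression was compared between lung tumors of TKO;Nfib R388K mice, called NFIB mutant here, and TKO tumors, which carry normal NFIB, to describe which gene programs differ when arginine 388 of NFIB, the residue methylated by CARM1, is replaced by lysine. The comparison holds 6 of the 18 libraries of the series, 3 RNA-seq libraries of each genotype, and all 46078 genes of the count table, of which 15514 had enough reads to be tested. In both genotypes Cre deletes floxed Rb1 and Trp53 and a further gene of the retinoblastoma family, which is Rbl1 in the sample labels, while the text of the study names Rbl1 in one place and Rbl2 in others. They also carry a tdTomato reporter that Cre switches on. Cre was delivered to the airways by adenovirus at 8 weeks of age and tumors were collected 28 weeks later. The R388K change is a knock-in made by genome editing, so it is present in every cell of the mouse, whereas the other deletions are made only where Cre acted. The methods state that tdTomato-positive cells were sorted, while the results name tumor biopsies. The tdTomato transcript was not among the genes counted, so the sort could not be checked on it. The mice were of mixed C57BL/6 and FVB129/N background. The labels give 3 replicates for each genotype, and the study describes them as independent mice. No batch is named, and any difference in handling between the genotypes cannot be told apart from the genotype.

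Small cell lung cancer is a neuroendocrine tumor. Its cells express transcription factors of the neuroendocrine lineage, such as INSM1 and PROX1, together with secretory granule proteins and many genes of neurons. NFIB, a member of the nuclear factor I family that binds DNA as a dimer, is amplified in mouse small cell tumors and is known to open chromatin in them. CARM1 is an enzyme that places methyl groups on arginines of histones and of transcriptional regulators.

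The residue that separates the genotypes is encoded on chromosome 4 of GRCm38 from 82327810 to 82327812 on the minus strand, in coding exon 8 of Nfib. The stretch of the exon around it is given because this codon is the designed difference between the groups. It spans chr4:82327765-82327857, is printed 5′ to 3′ on the coding strand, and has the codon AGA for arginine 388 in capitals.
Nfib codon 388: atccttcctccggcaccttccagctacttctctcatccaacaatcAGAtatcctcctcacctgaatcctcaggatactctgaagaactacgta
The last bases of the codon belong to the only gatatc site of this stretch, the cut site of EcoRV that the knock-in was designed to remove. Arginine stands at residue 388 in 8 of the 10 NFIB proteins listed by RefSeq for the mouse that are long enough to reach this residue. Gene counts do not show the base at this codon, so they could not be used to check the allele itself.

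The level of Nfib (ENSMUSG00000008575) differed between the genotypes. Values here are read counts scaled to a common library size as CPM, with library sizes adjusted by edgeR's TMM method. Nfib had 420.2, 579.9 and 571 CPM in TKO tumors against 105, 83.3 and 91.4 CPM in NFIB mutant tumors. The groups did not overlap (log2 fold change -2.49, standard error 0.41, adjusted p = 0.00325). The test here and below is the quasi-likelihood test of edgeR, adjusted over all tested genes by the Benjamini-Hochberg method. A gene was called where its adjusted p was under 0.1 and its log2 fold change, NFIB mutant minus TKO, was at least 0.8 in size. Nfic, another nuclear factor I gene, had 98.6, 141 and 202 CPM in TKO tumors against 246, 361 and 406 CPM in NFIB mutant tumors and rose (log2 fold change 1.20, adjusted p = 0.0333). Nfia (-0.67, adjusted p = 0.209) and Nfix (-0.50, adjusted p = 0.11) were not called on the same log2 scale. Carm1 had 97.7, 103 and 44.5 CPM in TKO tumors against 100.4, 104 and 102 CPM in NFIB mutant tumors and was not called (log2 fold change 0.32, adjusted p = 0.426). TKO replicate 3 lay below the other 5 libraries for Carm1. Rb1, one of the genes that Cre deletes in both genotypes, had 92.3, 60.4 and 73.2 CPM in TKO tumors against 32.6, 31.2 and 8.58 CPM in NFIB mutant tumors and fell (log2 fold change -1.64, adjusted p = 0.0442), a call lost without TKO replicate 1 at a log2 fold change of -1.46. Trp53 had 10.9, 9.62 and 12.4 CPM in TKO tumors against 7.6, 3.7 and 7.56 CPM in NFIB mutant tumors and was not called (adjusted p = 0.123). Counts are summed over each gene, so the deleted exons cannot be seen in them.

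Over all tested genes, 3459 were called higher in NFIB mutant tumors (22.3%) and 3640 lower (23.5%), so that 45.8% were called in all. With library totals in place of TMM scaling the split was 2687 higher and 4816 lower, and the median over all genes, on the log2 scale, moved from -0.05 to -0.37. The changes were large, with a median absolute log2 fold change of 1.02 and 2826 called genes at 8-fold or more, of which 1505 were higher and 1321 lower. The libraries of the genotypes did not overlap in 57.7% of the genes. Pearson's correlation of log2 CPM over genes was 0.898 to 0.956 between TKO libraries, 0.909 to 0.921 between NFIB mutant libraries and 0.573 to 0.682 between the genotypes. The reads counted on genes came to 17269208 in the shallowest library and 20915057 in the deepest. The detection limit was set at 3 counts. With TMM scaling it ran from 0.131 CPM in TKO replicate 2 to 0.191 CPM in NFIB mutant replicate 3. This limit covers counting error only. With 3 libraries against 3, an exact permutation test of a single gene could not go below 0.1. The replicates of a genotype were not alike in every respect. NFIB mutant replicate 1 carried transcripts of lung epithelium, with 1975, 38.5 and 2.67 CPM summed over the tested markers in replicates 1 to 3. Tested leukocyte markers summed to 411, 445 and 4.32 CPM in the same order. In replicate 1 nearly all of this was Lyz2, a lysozyme gene of myeloid cells and of alveolar type 2 cells, with 404, 96.2 and 0.953 CPM, whereas in replicate 2 the other 4 markers were high as well, with 0.365, 25.8 and 0.191 CPM of Ptprc, which encodes CD45, and 0.243, 75.5 and 0.826 CPM of Laptm5. TKO replicate 3 had low ribosomal protein transcripts and lacked the high Mycn of the other TKO libraries. Counts and medians of lists that moved by more than 1.5 times when 1 library was left out are given beside the results. The RNA is from many cells at once, so fewer cells of a type and less RNA per cell cannot be told apart in any result below.

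**Figure D1:**
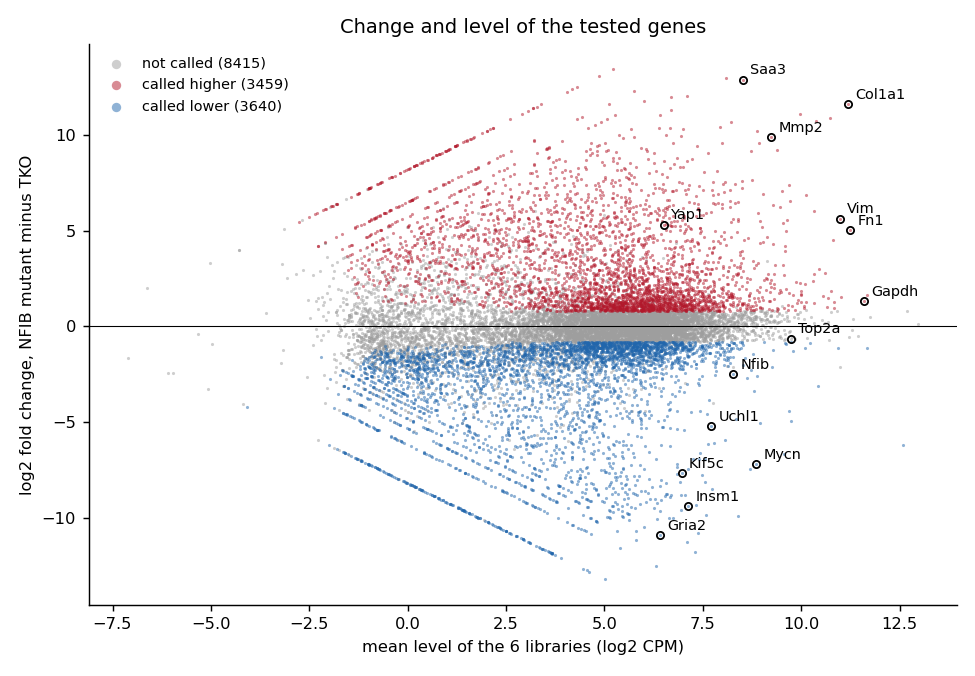
Log2 fold change of each of the 15514 tested genes (NFIB mutant minus TKO) against the log2 of its mean level in CPM over the 6 libraries, with 3459 genes called higher in red and 3640 called lower in blue. Genes of the matrix, such as Col1a1 at a log2 fold change of 11.61, lie high on the right, and Insm1 (-9.39) and Gria2 lie low. The straight diagonal rows are genes with no or almost no counts in one genotype, whose fitted values depend on the prior count.

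Genes of neuroendocrine identity formed 1 of 29 gene lists described here. Of its 35 members, 27 fell and none rose, against 23.5% of all genes called lower, and the median log2 fold change of the list was -7.74 beside -0.05 for all genes. Among the lineage transcription factors, Insm1, a zinc finger repressor of neuroendocrine cells, had 257, 326 and 254 CPM in TKO tumors against 0.79, 0.432 and 0 CPM in NFIB mutant tumors. It was under 1 CPM in every NFIB mutant library and abundant in every TKO library (log2 fold change -9.39, standard error 2.31, adjusted p = 0.0147). Prox1, a homeobox factor of neuroendocrine cells, had 222, 534 and 365 CPM in TKO tumors against 2.61, 1.36 and 0 CPM in NFIB mutant tumors and fell (log2 fold change -8.13, standard error 2.47, adjusted p = 0.0313). Sox2, a stem and progenitor factor, had 226, 237 and 208 CPM in TKO tumors against 10, 6.16 and 0 CPM in NFIB mutant tumors and fell (log2 fold change -5.37, adjusted p = 0.0485), a call lost without NFIB mutant replicate 2 at -5.47. Neurod1, which marks another subtype of small cell lung cancer, was low in TKO with 1.78, 9.88 and 3.15 CPM and at 0 counts in all 3 NFIB mutant libraries, at least 26.5-fold lower against a floor of 3 counts per library, or 13.2-fold without TKO replicate 2. Mycl, a MYC family gene, had 146, 14.7 and 7.18 CPM in TKO tumors against 1.4, 2.03 and 2.16 CPM in NFIB mutant tumors and fell (log2 fold change -4.90, standard error 1.14, adjusted p = 0.0121), with TKO replicate 1 far above the other TKO libraries. Nkx2-1, a lung lineage factor, had 601, 386 and 236 CPM in TKO tumors against 70.5, 5.3 and 0.191 CPM in NFIB mutant tumors. Its groups did not overlap, but the mutant libraries spanned a wide range and it was not called (log2 fold change -4.01, adjusted p = 0.132); it was called without NFIB mutant replicate 1, at -7.20. Foxa1, a pioneer factor of endoderm, had 137, 185 and 95.5 CPM in TKO tumors against 10.6, 6.29 and 0.127 CPM in NFIB mutant tumors and fell (log2 fold change -4.61, standard error 1.91, adjusted p = 0.0826), though leaving out any 1 of the 6 libraries ended the call, with log2 fold changes from -5.43 to -4.03. Foxa2 (-0.81 on the log2 scale) and Isl1 (1.65) were not called, and their libraries overlapped. Isl1 was called higher without TKO replicate 3, at 5.42.

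The granule and surface genes of the neuroendocrine list followed. Of 12 granule and peptide genes 9 fell, and of 12 surface and cytoplasmic markers 10 fell. Chga, the granule protein chromogranin A used to diagnose these tumors, had 336, 125 and 334 CPM in TKO tumors against 1.34, 0.247 and 0.191 CPM in NFIB mutant tumors and fell (log2 fold change -8.78, standard error 2.65, adjusted p = 0.0307). Uchl1, a neuronal ubiquitin hydrolase, had 414, 387 and 425 CPM in TKO tumors against 11.7, 17.9 and 3.37 CPM in NFIB mutant tumors and fell (log2 fold change -5.21, standard error 0.97, adjusted p = 0.00521). For both genes every TKO library was over 20 times as high as any NFIB mutant library. Ncam1, the adhesion molecule CD56, had 159, 169.8 and 284 CPM in TKO tumors against 25.5, 14.2 and 46.6 CPM in NFIB mutant tumors and fell (log2 fold change -2.83, standard error 0.62, adjusted p = 0.00992). Cpe, the carboxypeptidase that processes peptide hormones, was an exception: it had 284, 276 and 444 CPM in TKO tumors against 161, 138 and 429 CPM in NFIB mutant tumors, with NFIB mutant replicate 3 among the TKO values, and was not called (log2 fold change -0.46, adjusted p = 0.403), but was without that library, at -1.15. The summed level of the 35 genes was 4852, 4695 and 7687 CPM in TKO tumors and 725, 335 and 556 CPM in NFIB mutant tumors. The labelled tumor type was thus matched by its defining markers in the TKO libraries, while Insm1 and Chga were each below 2 CPM in all NFIB mutant libraries.

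Genes of neurons fell alongside. Of 27 tested genes of synaptic vesicles and exocytosis 19 fell and none rose (median -3.95 on the log2 scale, or -2.38 without TKO replicate 3). Snap25, a SNARE protein that fuses vesicles with the membrane, had 104, 136 and 479.9 CPM in TKO tumors against 1.95, 0.493 and 0.127 CPM in NFIB mutant tumors and fell (log2 fold change -8.11, standard error 2.37, adjusted p = 0.0271). Syt1, the calcium sensor of synaptic vesicles, had 126, 98.3 and 195 CPM in TKO tumors against 1.28, 0.0616 and 0.318 CPM in NFIB mutant tumors and fell (log2 fold change -7.96, standard error 2.33, adjusted p = 0.0274). Syt11, a related protein, kept 51.8, 57.5 and 43.5 CPM in NFIB mutant tumors against 307, 232 and 380.5 CPM in TKO, a fall of a smaller size (log2 fold change -2.59, standard error 0.34, adjusted p = 0.00146). Syt7 (-0.36), Syn1 (-1.38) and Cplx2 (-2.16) were not called on the same scale, but Syn1 was without NFIB mutant replicate 2, at -2.87.

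Of 29 tested neurotransmitter receptors and ion channels, 21 fell and 1 rose (median -5.28), with 14 to 19 lower when 1 library was left out, and all 9 potassium channel genes tested were among those that fell. Kcnh2, a potassium channel gene, had 54.7, 56 and 77.2 CPM in TKO tumors against 5.65, 3.45 and 4.32 CPM in NFIB mutant tumors and fell (log2 fold change -3.80, standard error 0.96, adjusted p = 0.0161). Cacna1a, the pore of a presynaptic calcium channel, had 74.4, 245 and 63.9 CPM in TKO tumors against 6.99, 12.8 and 3.3 CPM in NFIB mutant tumors and fell (log2 fold change -4.05, standard error 0.94, adjusted p = 0.0118). It was 1 of 5 sodium and calcium channel genes that fell, of 10 tested. Cacna1c, a calcium channel gene also used by muscle, had 86.8, 103 and 64.8 CPM in TKO tumors against 113, 104 and 21.9 CPM in NFIB mutant tumors and was not called (log2 fold change -0.09, adjusted p = 0.897).

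Of 30 tested neuronal cytoskeleton and RNA splicing genes 26 fell and 1 rose (median -6.46). Elavl3, a neuronal RNA-binding protein, had 391, 354 and 409 CPM in TKO tumors against 1.22, 0 and 0 CPM in NFIB mutant tumors and fell (log2 fold change -9.85, standard error 2.79, adjusted p = 0.0242). Dcx, the microtubule protein doublecortin, had 249, 97.6 and 656 CPM in TKO tumors against 0.426, 0.123 and 0 CPM in NFIB mutant tumors and fell (log2 fold change -10.77, standard error 2.72, adjusted p = 0.016). Map1b, also a microtubule protein, had 894, 707 and 808 CPM in TKO tumors against 60.9, 129 and 206 CPM in NFIB mutant tumors and fell (log2 fold change -2.61, standard error 0.45, adjusted p = 0.00389). Neither of the splicing factors Rbfox2, with a log2 fold change of -0.15 (adjusted p = 0.483), and Ptbp1, with one of 0.43 (adjusted p = 0.248), was called. Rest, the repressor of neuronal genes outside neurons, is a member of the Notch list and was singled out here after its values had been seen. It had 4.18, 6.69 and 5.63 CPM in TKO tumors against 57.5, 63.9 and 47.3 CPM in NFIB mutant tumors and rose (log2 fold change 3.35, standard error 0.24, adjusted p = 0.000257).

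**Figure D2:**
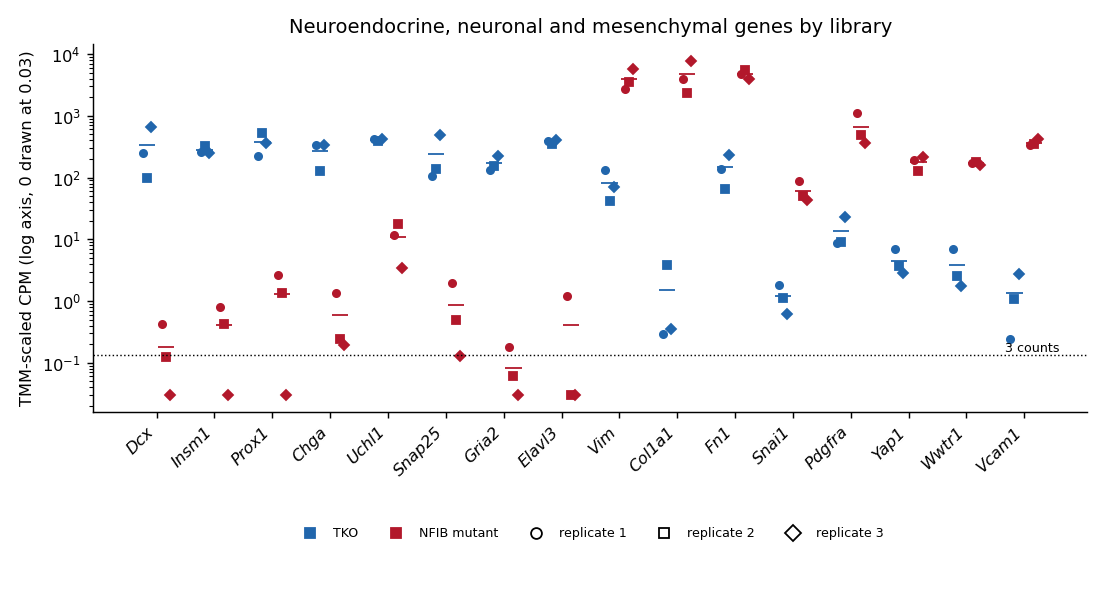
Level of 16 genes in each library in TMM-scaled CPM on a log axis, with TKO in blue, NFIB mutant in red, a symbol for each replicate and a bar at the mean of 3 libraries. The first 8 genes, neuroendocrine and neuronal, are high in TKO, as with Insm1 at 257, 326 and 254 CPM, and near or under 3 CPM in the NFIB mutant except for Uchl1, and the last 8 are reversed, as with Vim at 2697, 3548 and 5712 CPM in NFIB mutant tumors.

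The largest falls among genes with at least 10 counts in all 6 libraries were led by Dclk2, a doublecortin-like kinase. It had 359, 241 and 463 CPM in TKO tumors against 1.03, 1.11 and 2.73 CPM in NFIB mutant tumors (log2 fold change -7.77, standard error 1.22, adjusted p = 0.0027). Kif5c, a kinesin motor of neurons, had 318, 267 and 158 CPM in TKO tumors against 1.22, 0.863 and 1.59 CPM in NFIB mutant tumors (log2 fold change -7.66, standard error 1.56, adjusted p = 0.00734). The libraries of a group lay close together for both genes. Mycn, the MYC family gene of neural tumors, had 1173, 1560.3 and 19.1 CPM in TKO tumors against 14.4, 3.02 and 1.27 CPM in NFIB mutant tumors (log2 fold change -7.20, adjusted p = 0.0117). Fam49a had 2652, 1791 and 64.3 CPM in TKO tumors against 23.2, 6.1 and 14.5 CPM in NFIB mutant tumors (log2 fold change -6.68, adjusted p = 0.00794). It lies in the same region of chromosome 12 as Mycn, at 12262139-12380965 with Mycn at 12936093-12941914. For both genes TKO replicates 1 and 2 were over 20 times as high as TKO replicate 3, which was nearest to the NFIB mutant libraries. The other members of this group were Nnat, C530008M17Rik, Eef1a2, Bsn, Sptb and Celf3, with log2 fold changes from -7.44 (Nnat) to -6.42 (Celf3). The call of Eef1a2 was lost without NFIB mutant replicate 1 (-6.62) or replicate 3 (-6.58).

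A further 547 genes that fell had 3 counts or fewer in every NFIB mutant library, and for 74 of them every TKO library was at 10 CPM or more. Gria2, an AMPA-type glutamate receptor subunit, had 133, 155 and 223 CPM in TKO tumors and 4 counts in all 3 NFIB mutant libraries together, a ratio of 2060 with a 95% counting interval of 804 to 7559. Nefh, a neurofilament, had 137, 123 and 75.5 CPM in TKO and 3 counts in the NFIB mutant libraries. Nalcn, a sodium leak channel, had 40.4, 75.1 and 115 CPM in TKO and 9 counts, a ratio of 414 (218 to 905). These genes were high in each TKO library. Cplx1, Slc7a14, Ntrk2, Sox1, Tmem178b and Unc79 showed the same pattern, with 1 to 7 counts over the NFIB mutant libraries. Syn2 was different, since its 5.62, 0.481 and 472 CPM in TKO came almost all from replicate 3, and its call was lost without that library and without any 1 of the NFIB mutant libraries.

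Genes of mesenchymal cells rose as a group. Of 39 tested mesenchymal regulators 28 rose and 1 fell, against 22.3% of all genes called higher, with a median log2 fold change of 4.44. Among the factors that drive epithelial to mesenchymal transition, Snai1 had 1.83, 1.14 and 0.62 CPM in TKO tumors against 89.5, 50.8 and 43.8 CPM in NFIB mutant tumors and rose (log2 fold change 5.68, standard error 0.48, adjusted p = 0.000323). Zeb1, of the same class, had 101, 145 and 90.6 CPM in TKO tumors against 98.9, 97.6 and 104 CPM in NFIB mutant tumors; its libraries overlapped and it was not called (log2 fold change -0.17, standard error 0.21, adjusted p = 0.54). Twist1 rose from 23.7, 28 and 34.6 CPM to 57.2, 52.6 and 64.8 CPM (log2 fold change 1.02, adjusted p = 0.0235), though it was not called with scaling by library totals. Prrx1, a homeobox factor of fibroblasts, had 7.25, 3.46 and 0.354 CPM in TKO tumors against 655, 1012 and 244 CPM in NFIB mutant tumors and rose (log2 fold change 7.43, standard error 1.17, adjusted p = 0.0027). The groups did not overlap for Snai1, Twist1 or Prrx1. Tcf4, a basic helix-loop-helix factor, was the 1 member that fell, from 263, 412 and 605 CPM to 172, 118 and 113 CPM (log2 fold change -1.67, standard error 0.32, adjusted p = 0.00589). All 9 receptors of the list rose. Pdgfra, the receptor for platelet-derived growth factor on mesenchymal cells, had 8.6, 9.01 and 22.6 CPM in TKO tumors against 1111, 485 and 367 CPM in NFIB mutant tumors (log2 fold change 5.61, standard error 0.69, adjusted p = 0.00121). Fgfr1, a fibroblast growth factor receptor, had 32.6, 30.2 and 19.9 CPM in TKO tumors against 551, 556 and 452 CPM in NFIB mutant tumors and was even within both genotypes (log2 fold change 4.24, standard error 0.30, adjusted p = 0.000254). Vim, the intermediate filament vimentin, had 131, 41 and 71.2 CPM in TKO tumors against 2697, 3548 and 5712 CPM in NFIB mutant tumors and rose (log2 fold change 5.62, standard error 0.54, adjusted p = 0.000503). Cdh2, N-cadherin, had 193, 195 and 172 CPM in TKO tumors against 109, 80.3 and 183 CPM in NFIB mutant tumors and was not called (adjusted p = 0.22), but was without NFIB mutant replicate 3, at a log2 fold change of -0.97.

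Of 38 tested collagens and collagen enzymes 31 rose and none fell (median 4.86). Col1a1, the main fibrillar collagen of connective tissue, had 0.288, 3.85 and 0.354 CPM in TKO tumors against 3949, 2372 and 7796 CPM in NFIB mutant tumors (log2 fold change 11.61, standard error 1.37, adjusted p = 0.00103). Col4a1, a basement membrane collagen, had 60.8, 90.4 and 22.6 CPM in TKO tumors against 786, 658 and 582 CPM in NFIB mutant tumors (log2 fold change 3.54, standard error 0.71, adjusted p = 0.007). Serpinh1, the chaperone that folds collagen, had 0.192, 3.59 and 0.0443 CPM in TKO tumors against 709.7, 859.6 and 1347 CPM in NFIB mutant tumors (log2 fold change 9.56, standard error 1.46, adjusted p = 0.00243). The groups did not overlap for any of these genes, and Col1a1 and Serpinh1 were near the detection limit in TKO replicates 1 and 3. The summed level of the list was 557 to 816 CPM in TKO and 16900.0 to 25011 CPM in NFIB mutant libraries.

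Among 54 tested matrix glycoproteins, proteoglycans and proteases 37 rose and 4 fell (median 4.73). Fn1, fibronectin, had 138, 64.8 and 234 CPM in TKO tumors against 4787, 5449 and 3895 CPM in NFIB mutant tumors and rose (log2 fold change 5.02, standard error 0.59, adjusted p = 0.000972). Sparc, a collagen-binding glycoprotein, had 17.9, 10.2 and 24.8 CPM in TKO tumors against 1246, 1455 and 2276 CPM in NFIB mutant tumors and rose (log2 fold change 6.55, standard error 0.48, adjusted p = 0.000264). Mmp14, a membrane metalloproteinase, had 4.76, 9.71 and 1.55 CPM in TKO tumors against 466, 542 and 322 CPM in NFIB mutant tumors and rose (log2 fold change 6.37, standard error 0.68, adjusted p = 0.00077). The 4 members that fell were Eln, which encodes elastin, Fbn2, Vtn and Serpine2, named after their values had been seen. Eln had 36.5, 58.8 and 89.6 CPM in TKO tumors against 3.65, 1.6 and 0.191 CPM in NFIB mutant tumors (log2 fold change -5.08, standard error 0.94, adjusted p = 0.00519), and Vtn was high only in TKO replicate 2. Without NFIB mutant replicate 2 or replicate 3, 2 members fell, with the calls of Fbn2 and Serpine2 lost in both cases. Igfbp5, a binding protein of insulin-like growth factors, ranged over 226, 2373 and 7312 CPM in TKO tumors against 43, 2031 and 224 CPM in NFIB mutant tumors and was not called (adjusted p = 0.326).

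Actin-based contractile genes and targets of SRF, a factor that responds to actin, rose in 18 of 25 tested members with none lower (median 2.83). Tagln2 had 58.6, 56.2 and 24.7 CPM in TKO tumors against 912, 950.3 and 972 CPM in NFIB mutant tumors (log2 fold change 4.34, standard error 0.40, adjusted p = 0.000432), Flna, the actin crosslinker filamin A, had a log2 fold change of 2.79 (adjusted p = 0.00108), and Tpm1, a tropomyosin, one of 3.22 (adjusted p = 0.000323). Mrtfa, the coactivator of SRF, had 37, 36.6 and 36.9 CPM in TKO tumors against 127, 100.2 and 143 CPM in NFIB mutant tumors (log2 fold change 1.75, standard error 0.20, adjusted p = 0.000857), and the groups were tight and separate. Srf itself had 57.8, 56.7 and 57.4 CPM in TKO tumors against 96.5, 106 and 106 CPM in NFIB mutant tumors and rose by less (log2 fold change 0.84, standard error 0.14, adjusted p = 0.00341), a call not made with library totals. Of 31 tested genes of the YAP, TAZ and TEAD pathway 20 rose and none fell (median 3.47). The coactivators Yap1, with 7.01, 3.67 and 2.84 CPM in TKO tumors against 193, 129 and 213 CPM in NFIB mutant tumors (log2 fold change 5.31, standard error 0.46, adjusted p = 0.000343), and Wwtr1, which encodes TAZ, with 7.01, 2.58 and 1.73 CPM in TKO tumors against 175, 179 and 163 CPM in NFIB mutant tumors (log2 fold change 5.51, standard error 0.60, adjusted p = 0.000789), were low in all TKO libraries and high in all NFIB mutant libraries. Their partner Tead1 had 307, 257 and 176 CPM in TKO tumors against 326, 411 and 223 CPM in NFIB mutant tumors and was not called (log2 fold change 0.38, standard error 0.30, adjusted p = 0.335), while Tead2 rose (log2 fold change 3.86, standard error 0.64, adjusted p = 0.00336). Of the targets 11 of 16 rose, among them Ccn1, a secreted matricellular protein, with 9.99, 3.32 and 1.29 CPM in TKO tumors against 151, 419 and 429 CPM in NFIB mutant tumors (log2 fold change 6.10, standard error 0.96, adjusted p = 0.0027). The upstream kinase regulator Nf2 was not called (log2 fold change -0.06, adjusted p = 0.806).

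Promoter sequence was set beside these lists, because their members moved together and the binding letters of their factors are known. The 250 bases before the start of 11398 tested genes, from RefSeq on GRCm38.p6, were searched on both strands. Motifs of further factors were searched in the same promoters, and not all are given here. GGAATG, the core of the TEAD motif, was found in 12 of 24 promoters of the YAP, TAZ and TEAD list. It was found in 9 of 21 of the contractile list (42.9%) and in 10.7% of all 11398. The next highest shares were 4 of 16 in the Notch list (25%) and 6 of 25 in the neuroendocrine list (24%), which fell. The CArG box bound by SRF was found in 5 of 21 promoters of the contractile list (23.8%) and in 1.18% of all. A promoter with each motif is shown, with the motif in capitals, for Ccn1 (chr3:145649986-145650235, minus strand) and for Vcl, which encodes the adhesion protein vinculin (chr14:20929148-20929397, plus strand). They were chosen after the matches and values had been seen.
Ccn1 promoter: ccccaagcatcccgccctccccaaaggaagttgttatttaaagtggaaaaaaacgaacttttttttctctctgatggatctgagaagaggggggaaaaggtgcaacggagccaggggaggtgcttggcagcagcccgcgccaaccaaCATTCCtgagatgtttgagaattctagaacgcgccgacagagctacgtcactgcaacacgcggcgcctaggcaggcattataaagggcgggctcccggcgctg
Vcl promoter: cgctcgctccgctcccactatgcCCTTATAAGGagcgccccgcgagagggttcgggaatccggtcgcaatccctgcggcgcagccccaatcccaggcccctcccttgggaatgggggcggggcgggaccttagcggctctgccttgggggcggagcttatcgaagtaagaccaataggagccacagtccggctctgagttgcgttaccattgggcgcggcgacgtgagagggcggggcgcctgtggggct
Vcl had 41.1, 27.8 and 28.4 CPM in TKO tumors against 177, 201 and 279 CPM in NFIB mutant tumors and rose (log2 fold change 2.76, standard error 0.41, adjusted p = 0.00216). The single NFI site TTGGCA was found in 10.7% of the promoters of genes that rose, 10.5% of those that fell and 9.97% of all, and the full palindrome, TTGGC and GCCAA with any 5 bases between them, in 6 promoters in all, 4 of them of genes that rose. TGANTCA, the site of AP-1, was found in 6.61% of promoters of genes that rose, 3.28% of those that fell and 4.33% of all. A match describes letters in this window and is not evidence of binding, and the shares were not tested.

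Markers of fibroblasts moved with the mesenchymal and matrix lists. Of 10 fibroblast markers 9 were tested and 7 rose (77.8%, against 22.3% of all genes). Their summed level was 20.5 to 73.2 CPM in TKO and 10639 to 16803 CPM in NFIB mutant libraries. All of these markers except Pi16 are also in the lists above. Lum, another fibroblast marker, was at 0.0608, 24.2 and 0.127 CPM in NFIB mutant tumors, and Pi16 was not called, with 2 to 6 counts in each of the 6 libraries. Tcf21, a lung fibroblast factor, had 3 counts at most in any library. Whether the mesenchymal transcripts came from tumor cells or from fibroblasts was not tested.

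The largest rises among genes with at least 10 counts in all 6 libraries were Mmp2, a gelatin-degrading metalloproteinase, with 0.577, 1.57 and 1.68 CPM in TKO tumors against 846, 2401 and 373 CPM in NFIB mutant tumors (log2 fold change 9.87, standard error 1.13, adjusted p = 0.000938), and Ptgs2, the inducible cyclooxygenase, with 0.865, 3.06 and 0.443 CPM in TKO tumors against 309, 2117 and 122 CPM in NFIB mutant tumors (log2 fold change 9.18, standard error 1.78, adjusted p = 0.0061). Mmp3, another metalloproteinase, had 4.04, 3.98 and 3.15 CPM in TKO tumors against 749.9, 1109 and 304 CPM in NFIB mutant tumors (log2 fold change 7.60, standard error 0.57, adjusted p = 0.000285). The groups were far apart for each of these 3 genes, and NFIB mutant replicate 2 held the highest value of each. Nid1, Fbn1, Mrc2 and Col12a1, all of the matrix or its uptake, C3 of complement, Gda and Crabp1 completed the group, with log2 fold changes from 7.35 (Col12a1) to 7.61 (Nid1). In Col12a1 and Crabp1 NFIB mutant replicate 3 was the lowest of the 3, with values of 2402, 2407 and 156 CPM for Col12a1.

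A further 344 genes that rose had 3 counts or fewer in every TKO library, and in 21 of them every NFIB mutant library was at 10 CPM or more. Slit3, a secreted guidance ligand, had 4 counts over the 3 TKO libraries and 645, 933 and 55.9 CPM in NFIB mutant tumors, a ratio of 9022 with a 95% counting interval of 3524 to 33110, or 5806 without NFIB mutant replicate 2. Mfap5, a microfibril protein, had no count in TKO and 83.1, 71.3 and 68.9 CPM in NFIB mutant tumors, at least 547-fold higher against 3 counts per library. Tmem45a had 2 counts in TKO and 163, 114 and 110.4 CPM in NFIB mutant tumors, and Ly6c1 had 6 counts in TKO and 109, 111 and 47.6 CPM. These genes were high in each mutant tumor. Ccl11, a chemokine for eosinophils, had 241, 382 and 3.05 CPM, with replicate 3 far below the others. Apol9a, an interferon-induced gene, had 4.56, 98.3 and 206 CPM, with replicate 1 the lowest. Pf4, platelet factor 4, was high in replicate 2 alone, at 0.243, 207 and 1.27 CPM. Ly6a, Steap4 and Serpinb2 were the other genes of this group.

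**Figure D3:**
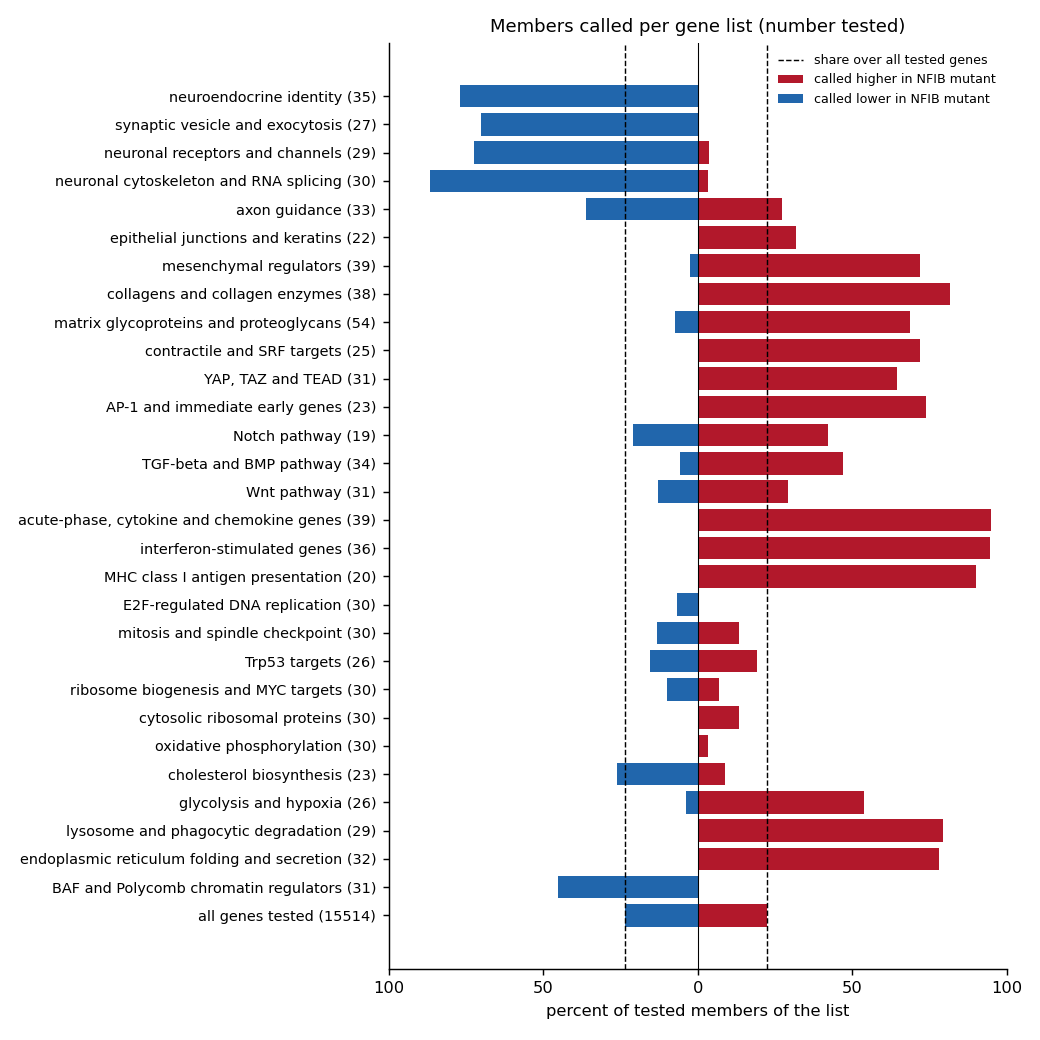
Percent of the tested members of each of 29 gene lists called higher (red, to the right) or lower (blue, to the left) in the NFIB mutant, with the number tested in brackets and dashed lines at 22.3% and 23.5%, the shares over all tested genes. The neuroendocrine and neuronal lists lie to the left, the matrix, cytokine, interferon, lysosome and endoplasmic reticulum lists to the right, and the cell cycle, ribosome and oxidative phosphorylation lists stay short on both sides.

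Of 39 tested acute-phase, cytokine and chemokine genes 37 rose and none fell (median 7.09). Serping1, an inhibitor of complement, had 0.0961, 0.437 and 0 CPM in TKO tumors against 274, 159.7 and 129 CPM in NFIB mutant tumors (log2 fold change 9.97, standard error 1.36, adjusted p = 0.00163). Vcam1, an adhesion molecule induced by inflammatory signals, had 0.24, 1.09 and 2.7 CPM in TKO tumors against 339.6, 349 and 415 CPM in NFIB mutant tumors (log2 fold change 8.08, standard error 0.88, adjusted p = 0.000815). Both were even among the mutant libraries. Saa3, an acute-phase protein, had 0, 0.0875 and 0.177 CPM in TKO tumors against 62.7, 2095 and 38.4 CPM in NFIB mutant tumors (log2 fold change 12.88, standard error 2.73, adjusted p = 0.00821), and Ccl2, the chemokine that attracts monocytes, had 4.08, 0.744 and 0.133 CPM in TKO tumors against 98.1, 482 and 94.3 CPM in NFIB mutant tumors (log2 fold change 7.09, standard error 1.52, adjusted p = 0.00879). NFIB mutant replicate 2 held the highest value of Saa3 and Ccl2, and also the highest summed level of the list, with 4119, 9169 and 3014 CPM over the mutant libraries. TKO libraries held 116 to 234 CPM. The summed leukocyte markers were 47.5, 1.88 and 1.02 CPM in TKO and 411, 445 and 4.32 CPM in NFIB mutant tumors, and the summed macrophage markers 17.1, 3.06 and 4.7 and 37.1, 245 and 29.4 CPM. Of the leukocyte markers 1 of 5 tested rose (20%, near the 22.3% of all genes), or 3 without NFIB mutant replicate 1. Of the macrophage markers 4 of 9 rose (44.4%), or 1 without TKO replicate 2 and 2 without TKO replicate 3. The part of such cells in the rise of the cytokine genes was not tested. Ptprc, the pan-leukocyte marker CD45, was at 0.365, 25.8 and 0.191 CPM in the mutant libraries, and Itgam was at 0.0608, 186 and 0.826 CPM. T and B cell markers were at or near 0, with no count of Cd3e or Ms4a1 in any of the 6 libraries. Without NFIB mutant replicate 2, 35 of the cytokine list and 1 of the macrophage markers rose, and without replicate 1, 37 and 4. NFIB mutant replicate 3 had the lowest leukocyte sum of the mutant libraries, while its macrophage sum of 29.4 CPM was above that of every TKO library. Its sum of the cytokine list, 3014 CPM, was also above that of every TKO library.

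Interferon-stimulated genes rose in 34 of 36 tested members with none lower (median 4.69). Bst2, the antiviral protein tetherin, had 2.83, 1.14 and 2.22 CPM in TKO tumors against 26.6, 294 and 272 CPM in NFIB mutant tumors (log2 fold change 6.58, standard error 1.01, adjusted p = 0.00251). Ddx58, which encodes the RNA sensor RIG-I, had 2.45, 1.84 and 5.36 CPM in TKO tumors against 53.5, 175 and 192 CPM in NFIB mutant tumors (log2 fold change 5.44, standard error 0.70, adjusted p = 0.00142). Irf7, a factor that amplifies the response, had 2.16, 1.05 and 3.68 CPM in TKO tumors against 7.23, 189.8 and 125 CPM in NFIB mutant tumors (log2 fold change 5.54, standard error 1.30, adjusted p = 0.0123). NFIB mutant replicates 2 and 3 were close to each other and well above replicate 1 for Bst2 and Irf7. The receptor chains Ifnar1 (log2 fold change 1.28, adjusted p = 0.0022) and Ifnar2 (3.12, adjusted p = 0.00153) rose in all 3. Leaving out any 1 library left 29 to 34 members higher. The summed level of the list was 274, 301 and 409.9 CPM in TKO and 1156, 3827 and 3870.3 CPM in NFIB mutant tumors. The interferon response element was searched as TTTC, any 2 bases and TTTC on both strands. It was found in 11 of 28 promoters of the list (39.3%) and in 2.68% of all 11398. The next highest share was 5 of 21 (23.8%) in the list of ribosomal proteins, of which few were called. Promoters of Isg15 (chr4:156200819-156201068, minus strand) and Ifit3 (chr19:34583279-34583528, plus strand), each with 2 non-overlapping matches in capitals, show it. In Isg15 a further match overlaps both of these, and the 2 bases at its center are in lower case. These genes were chosen after their values and matches had been seen.
Isg15 promoter: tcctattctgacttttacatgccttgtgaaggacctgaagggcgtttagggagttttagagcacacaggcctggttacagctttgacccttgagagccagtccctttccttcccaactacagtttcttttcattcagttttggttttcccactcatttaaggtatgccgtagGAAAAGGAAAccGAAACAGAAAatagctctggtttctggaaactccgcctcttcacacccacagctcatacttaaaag
Ifit3 promoter: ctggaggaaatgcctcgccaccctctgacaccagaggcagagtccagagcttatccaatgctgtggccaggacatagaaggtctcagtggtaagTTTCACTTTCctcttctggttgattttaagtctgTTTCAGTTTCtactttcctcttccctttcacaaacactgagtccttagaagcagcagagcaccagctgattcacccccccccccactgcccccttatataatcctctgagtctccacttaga
Isg15, a ubiquitin-like protein, had 0.288, 0.131 and 0.266 CPM in TKO tumors against 3.04, 197 and 205 CPM in NFIB mutant tumors (log2 fold change 9.17, standard error 1.68, adjusted p = 0.0048). Ifit3, an antiviral effector, had 0.577, 0.219 and 1.82 CPM in TKO tumors against 1.58, 56 and 34.7 CPM in NFIB mutant tumors, with replicate 1 among the TKO values (log2 fold change 5.13, standard error 1.38, adjusted p = 0.0204). Of 20 tested genes for antigen presentation by MHC class I 18 rose and none fell (median 3.01). B2m, the light chain of class I molecules, had 30.7, 33.9 and 76.3 CPM in TKO tumors against 277, 1035 and 1694 CPM in NFIB mutant tumors (log2 fold change 4.42, standard error 0.80, adjusted p = 0.00477), and H2-D1, a heavy chain, had 104, 64.6 and 119 CPM in TKO tumors against 492, 1566 and 2268 CPM in NFIB mutant tumors (log2 fold change 3.91, standard error 0.70, adjusted p = 0.00458). Replicate 1 was again the lowest mutant library for both, but above every TKO library.

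**Figure D4:**
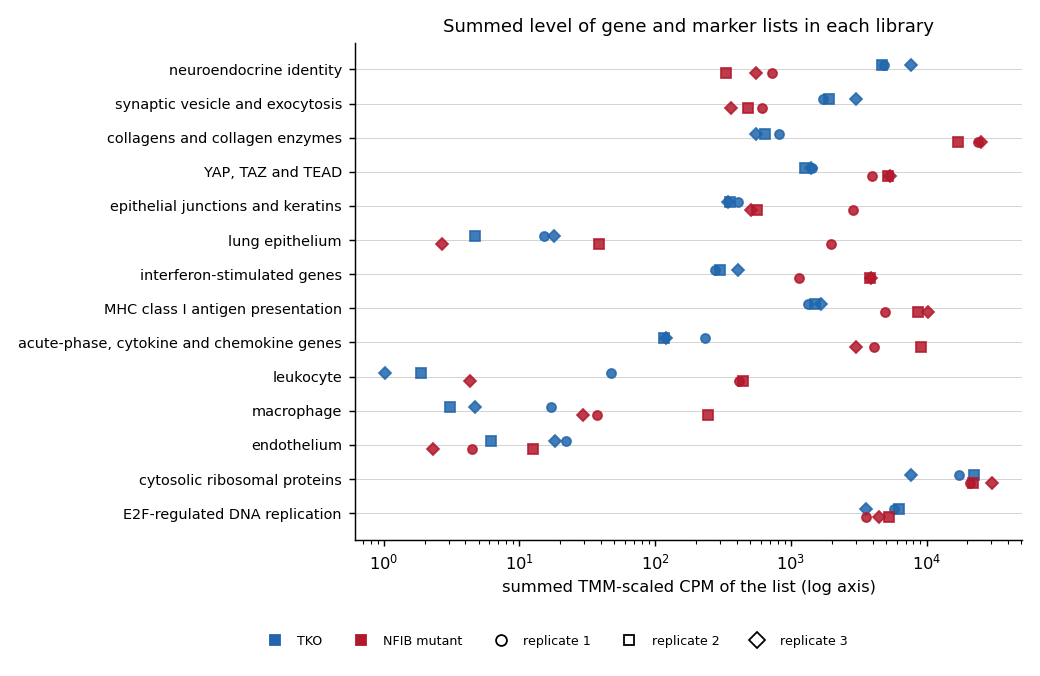
Summed TMM-scaled CPM of the tested members of 14 lists in each library on a log axis, with TKO in blue and NFIB mutant in red and a symbol for each replicate. NFIB mutant replicate 1 stands apart with 1975, 38.5 and 2.67 CPM of lung epithelium markers over replicates 1 to 3 and with the lowest interferon level of the mutant libraries, and replicate 2 has the highest macrophage sum.

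Epithelial genes varied widely among the NFIB mutant tumors. Of 22 tested junction and keratin genes 7 rose and none fell (31.8% against 22.3% of all genes), with a median of 0.91. Without NFIB mutant replicate 1 the median was -0.01 and 3 rose, and leaving out any other 1 library gave medians of 1.31 to 1.95. Without TKO replicate 2 or TKO replicate 3, 3 rose, and without NFIB mutant replicate 2, 4 rose. Krt8, a simple epithelial keratin, had 3.22, 0.0437 and 0.399 CPM in TKO tumors against 442, 81.5 and 1.08 CPM in NFIB mutant tumors (log2 fold change 7.17, adjusted p = 0.0941). Cdh1, E-cadherin, had 1.92, 0.569 and 1.33 CPM in TKO tumors against 232, 48 and 0 CPM in NFIB mutant tumors (log2 fold change 6.19, adjusted p = 0.0909). For both, replicate 1 was the highest and replicate 3 lay among or under the TKO libraries. Leaving out any library other than NFIB mutant replicate 3 ended both calls, with log2 fold changes from 5.09 to 9.59 for Krt8 and from 4.24 to 6.61 for Cdh1. Of the 11 lung epithelium markers 6 were tested, 2 rose and 1 fell (33.3% and 16.7%, against 22.3% and 23.5% of all genes). Sftpb, a surfactant protein of alveolar type 2 cells, had 0.769, 0.0875 and 0.222 CPM in TKO tumors against 1737, 35.9 and 0.254 CPM in NFIB mutant tumors and was called (log2 fold change 10.68, adjusted p = 0.0218), with NFIB mutant replicate 3 among the TKO values. Sftpc, another surfactant protein, had 8.89, 0.612 and 0.0443 CPM in TKO tumors against 126, 0.308 and 0.127 CPM in NFIB mutant tumors and was not called (adjusted p = 0.366). Foxj1, the factor of ciliated cells, was named after its values had been seen. It fell from 47, 57 and 292 counts in the TKO libraries to 3, 1 and 2 counts in the NFIB mutant libraries. Markers seen in too few libraries to be tested did not all point to the same library. Lamp3 had 391 counts and Trp63 556 in NFIB mutant replicate 1, with at most 2 in the other mutant libraries. Cyp2f2 had 176, 7 and 8 counts in the NFIB mutant libraries. Scgb1a1 was highest in TKO replicate 3, with 8, 0 and 658 counts in TKO libraries against 59, 1 and 0 in NFIB mutant libraries. Scgb3a2 had no count in any library. F11r, a junction protein found also outside epithelia, rose in all 3 mutant libraries, from 9.99, 4.51 and 1.64 to 77.7, 71.3 and 160.2 CPM (log2 fold change 4.26, standard error 0.69, adjusted p = 0.00308). Endothelial markers summed to 6.17 to 21.9 CPM in TKO and 2.29 to 12.5 CPM in NFIB mutant libraries, and Emcn and Cldn5 had no count in any of the 6.

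Signaling lists differed in the shares of members that rose and fell. Of 34 tested genes of the TGF-beta and BMP pathway 16 rose and 2 fell (47.1% and 5.88%, against 22.3% and 23.5% of all genes), with a median of 1.69. The number that fell was 4 without NFIB mutant replicate 1 and 1 without NFIB mutant replicate 3 or TKO replicate 1. Tgfb1, the main ligand, had 13.7, 3.94 and 0.975 CPM in TKO tumors against 109, 166 and 94.4 CPM in NFIB mutant tumors (log2 fold change 4.31, standard error 0.84, adjusted p = 0.00623), and its receptor Tgfbr2 had 13.6, 3.76 and 7.22 CPM in TKO tumors against 337, 244 and 194 CPM in NFIB mutant tumors (log2 fold change 4.98, standard error 0.72, adjusted p = 0.00205). The BMP receptors Bmpr1a and Bmpr2 were not called, with log2 fold changes of 0.32 and -0.29. Grem1, a secreted BMP inhibitor, had 14.9, 16.1 and 1.29 CPM in TKO tumors against 3047, 1145 and 180.1 CPM in NFIB mutant tumors (log2 fold change 7.08, standard error 1.39, adjusted p = 0.00631). In the Notch pathway 8 of 19 tested genes rose (42.1%, against 22.3% of all genes) and 4 fell (21.1%, near the 23.5% of all genes). Its median of -0.46 ran from -0.83 without NFIB mutant replicate 1 to 0.31 without TKO replicate 2. The receptor Notch2 had 30.9, 61.2 and 39.1 CPM in TKO tumors against 170.3, 246 and 136 CPM in NFIB mutant tumors and rose (log2 fold change 2.07, standard error 0.44, adjusted p = 0.00875), while Dll3, an inhibitory ligand carried by small cell lung cancer, had 35.6, 58.4 and 11.6 CPM in TKO tumors against 0.243, 0 and 0 CPM in NFIB mutant tumors and fell (log2 fold change -8.63, standard error 2.68, adjusted p = 0.0325). Hes6, which opposes Notch targets, fell from 78.4, 132 and 80.7 to 32, 12.3 and 23.8 CPM (log2 fold change -2.09, standard error 0.42, adjusted p = 0.00673). In the Wnt pathway 9 of 31 rose and 4 fell (29.0% and 12.9%, against 22.3% and 23.5% of all genes), with 7 lower without NFIB mutant replicate 1. The receptor Fzd7 had 3.99, 0.919 and 1.2 CPM in TKO tumors against 144, 93.5 and 72.5 CPM in NFIB mutant tumors and rose (log2 fold change 5.66, standard error 0.63, adjusted p = 0.000866), whereas the coreceptor Lrp6 was not called (log2 fold change 0.12, adjusted p = 0.735).

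Of 33 axon guidance genes 9 rose (27.3%, against 22.3% of all genes) and 12 fell (36.4%, against 23.5%), with a median of -0.22 that ran from -0.65 without NFIB mutant replicate 1 to 0.07 without NFIB mutant replicate 2. The ligand Slit2 had 10.8, 4.07 and 31.8 CPM in TKO tumors against 309.9, 554 and 86.2 CPM in NFIB mutant tumors and rose (log2 fold change 4.35, standard error 0.91, adjusted p = 0.00823), and the receptor Nrp2 had 28.4, 55.2 and 67.8 CPM in TKO tumors against 182, 694 and 113 CPM in NFIB mutant tumors and rose (log2 fold change 2.71, standard error 0.69, adjusted p = 0.0165). Lrp8, a reelin receptor of neurons, had 260.1, 248 and 105 CPM in TKO tumors against 46, 57.8 and 57.4 CPM in NFIB mutant tumors and fell (log2 fold change -1.93, standard error 0.32, adjusted p = 0.00344). AP-1 and immediate early genes rose in 17 of 23 tested members with none lower (median 2.56). Fosl2 had 29, 23.7 and 48.7 CPM in TKO tumors against 317, 446 and 109.5 CPM in NFIB mutant tumors (log2 fold change 3.10, standard error 0.53, adjusted p = 0.00372), Junb had a log2 fold change of 2.56 (adjusted p = 0.00205) and Klf6, a zinc finger factor, one of 2.57 (adjusted p = 0.00121).

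Few genes of cell division were called. Among 30 E2F-regulated DNA replication genes none rose and 2 fell (median -0.25), and among 30 genes of mitosis 4 rose and 4 fell (median -0.10), both under the 45.8% called over all genes. The median of the replication list ran from -0.47 without TKO replicate 3 to -0.08 without TKO replicate 2, and that of the mitosis list from -0.30 without TKO replicate 3 to 0.00 without TKO replicate 2. With library totals, which moved the median of all genes to -0.37, they were -0.57 and -0.42, 8 replication genes fell, and 1 gene of mitosis rose and 9 fell. Of the replication genes 5 fell without TKO replicate 3, 3 without NFIB mutant replicate 2 and 1 without any of the other 4 libraries, and at most 2 rose. Mki67, the proliferation marker, had 1009, 933 and 688 CPM in TKO tumors against 347, 475 and 309 CPM in NFIB mutant tumors and fell (log2 fold change -1.22, standard error 0.23, adjusted p = 0.00537). Top2a, the topoisomerase of dividing cells, had 1306, 1147 and 660.1 CPM in TKO tumors against 750.0, 684 and 559.7 CPM in NFIB mutant tumors and was not called (adjusted p = 0.0828), but was called without TKO replicate 3 and with library totals. Anln, needed for cytokinesis, had 168, 169.8 and 156 CPM in TKO tumors against 249.6, 474 and 342 CPM in NFIB mutant tumors and rose (log2 fold change 1.11, standard error 0.25, adjusted p = 0.0109), a call not made with library totals. Without TKO replicate 3, 2 genes of mitosis rose and 7 fell. Of 26 Trp53 targets 5 rose (19.2%) and 4 fell (15.4%), both shares under those of all genes, with a median of 0.24, or -0.09 with library totals, 0.01 without NFIB mutant replicate 1 and 0.12 without TKO replicate 2, and Cdkn1a, the cell cycle inhibitor p21, was not called (77.1, 37.9 and 60.1 CPM in TKO tumors against 94.7, 77.9 and 40.2 CPM in NFIB mutant tumors). Without TKO replicate 3, 8 of them rose and none fell, and without NFIB mutant replicate 2 or replicate 3, 1 fell.

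Ribosomal protein genes had 4 of 30 members higher and none lower (median 0.61). They summed to 17399, 22497 and 7694 CPM in TKO tumors and 20766, 21982 and 30375 CPM in NFIB mutant tumors, and TKO replicate 3 was far below the other 5. Without it or without NFIB mutant replicate 3, 2 members rose, at medians of 0.30 and 0.36. Without TKO replicate 2, 10 rose, at a median of 0.92, and with library totals 1 rose, at 0.30. Rplp0 had 1635, 1998 and 602 CPM in TKO tumors against 1868, 2884 and 2601 CPM in NFIB mutant tumors and was not called (adjusted p = 0.166), and Rps2 had 398, 645 and 287 CPM in TKO tumors against 1057, 1086 and 2692 CPM in NFIB mutant tumors and rose (log2 fold change 1.86, standard error 0.46, adjusted p = 0.0146). Of 30 genes of ribosome biogenesis 2 rose and 3 fell (median 0.15, or -0.17 with library totals, -0.10 without TKO replicate 3 and up to 0.29 without TKO replicate 2). The number that fell was 8 without TKO replicate 3, 9 with library totals, 2 without NFIB mutant replicate 3 and 1 without any of the other 4 libraries. Of 30 nuclear genes of oxidative phosphorylation 1 rose and none fell (median 0.21, or -0.13 with library totals and 0.12 without TKO replicate 1 or NFIB mutant replicate 3), and 3 rose without NFIB mutant replicate 1. Atp5b, a subunit of ATP synthase, had 1093, 1179 and 1358 CPM in TKO tumors against 1183, 1451 and 1461 CPM in NFIB mutant tumors (log2 fold change 0.17, standard error 0.23, adjusted p = 0.56).

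**Figure D5:**
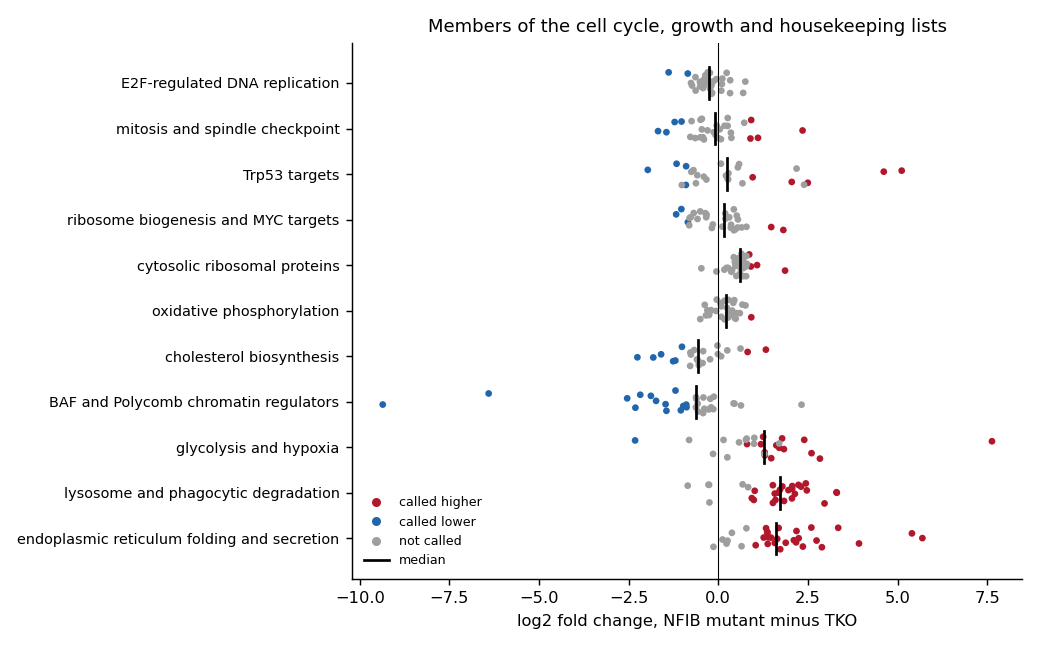
Log2 fold change (NFIB mutant minus TKO) of each tested member of 11 cell cycle, growth and housekeeping lists, with genes called higher in red, called lower in blue, not called in grey and the median of the list as a bar. Medians are -0.25 for the replication, -0.10 for the mitosis and 0.21 for the oxidative phosphorylation list (-0.57, -0.42 and -0.13 with library totals), and those of the lysosome (1.72) and endoplasmic reticulum (1.61) lists lie to the right.

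Other housekeeping programs shifted. Of 29 tested lysosomal genes 23 rose and none fell (median 1.72). Ctsl, a cysteine protease, had 129.6, 141 and 224 CPM in TKO tumors against 764, 1144 and 780.1 CPM in NFIB mutant tumors (log2 fold change 2.44, standard error 0.40, adjusted p = 0.00301), and Lamp1, a membrane protein of lysosomes, had 263, 323 and 389.6 CPM in TKO tumors against 1103, 1067 and 1196 CPM in NFIB mutant tumors (log2 fold change 1.79, standard error 0.20, adjusted p = 0.000849). Of 32 genes of protein folding and secretion in the endoplasmic reticulum 25 rose and none fell (median 1.61). Hspa5, the chaperone BiP, had 311, 335 and 406 CPM in TKO tumors against 1598, 1796 and 1587 CPM in NFIB mutant tumors (log2 fold change 2.24, standard error 0.22, adjusted p = 0.000508). P4hb, a disulfide isomerase that is also a subunit of the enzyme hydroxylating collagen, had 419, 268 and 309 CPM in TKO tumors against 2395, 2056 and 2213 CPM in NFIB mutant tumors (log2 fold change 2.74, standard error 0.27, adjusted p = 0.000511). Surf4, a cargo receptor, had 98.3, 92.5 and 109.8 CPM in TKO tumors against 576, 609 and 633 CPM in NFIB mutant tumors (log2 fold change 2.60, standard error 0.18, adjusted p = 0.000228). The mutant libraries were even for all of these and did not overlap TKO.

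Of 26 tested genes of glycolysis and hypoxia 14 rose and 1 fell (53.8% and 3.85%, against 22.3% and 23.5% of all genes). The median was 1.27, and 0 to 2 were lower when 1 library was left out. Pkm, pyruvate kinase, had 2188, 1483 and 1105 CPM in TKO tumors against 4184, 5346 and 5152 CPM in NFIB mutant tumors (log2 fold change 1.62, standard error 0.34, adjusted p = 0.00822), and Gapdh had 2162, 2116 and 1087 CPM in TKO tumors against 4174, 4428 and 4605 CPM in NFIB mutant tumors (log2 fold change 1.30, standard error 0.31, adjusted p = 0.0127). Rises were 11 of 16 among glycolysis genes and 3 of 10 among hypoxia targets, the latter near the 22.3% of all genes. Vegfa, a vascular growth factor induced by hypoxia, was not called (adjusted p = 0.249), but was without NFIB mutant replicate 3, at a log2 fold change of 1.45. Of 23 genes of cholesterol synthesis 6 fell and 2 rose (median -0.57, or -0.23 without TKO replicate 3 and -0.90 with library totals), near the 23.5% of all genes, and 10 fell without TKO replicate 1 and 11 with library totals. Hmgcs1, an enzyme early in the pathway, had 397, 683 and 1026 CPM in TKO tumors against 136, 166 and 138 CPM in NFIB mutant tumors and fell (log2 fold change -2.26, standard error 0.34, adjusted p = 0.00233), whereas Srebf2, which drives transcription of the pathway, was not called (log2 fold change 0.08, adjusted p = 0.786).

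Of 31 chromatin genes of the BAF and Polycomb complexes 14 fell and none rose (median -0.62, or -0.94 with library totals). Smarca4, the BAF ATPase BRG1, had 409, 402 and 278 CPM in TKO tumors against 255, 314 and 334 CPM in NFIB mutant tumors and was not called (adjusted p = 0.383). Smarcc1, a core subunit of BAF, had 351, 402 and 228 CPM in TKO tumors against 156, 169.8 and 172 CPM in NFIB mutant tumors and fell (log2 fold change -0.98, standard error 0.24, adjusted p = 0.0143). Ezh2, the Polycomb methyltransferase, had 190.4, 232 and 114 CPM in TKO tumors against 53.7, 61.8 and 45.7 CPM in NFIB mutant tumors and fell (log2 fold change -1.74, standard error 0.27, adjusted p = 0.00234), and Bmi1 of the other Polycomb complex had 123, 179 and 127 CPM in TKO tumors against 39.6, 36.4 and 40.5 CPM in NFIB mutant tumors and fell (log2 fold change -1.88, standard error 0.26, adjusted p = 0.00173). Subunits of the neuronal form of BAF, singled out after their values had been seen, included Actl6b, which fell from 12.8, 9.58 and 31.8 CPM to 1 count over the NFIB mutant libraries (adjusted p = 0.0214), and Dpf1 with 43.9, 34.7 and 23.4 CPM in TKO tumors against 6.69, 6.23 and 4.57 CPM in NFIB mutant tumors (log2 fold change -2.54, standard error 0.33, adjusted p = 0.00141).

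The steadiest abundant genes, the 10 with the narrowest confidence intervals among those not called, showed what the libraries could resolve at best. Ythdf1, a reader of methylated RNA, had 97.9, 108 and 103 CPM in TKO tumors against 109, 100.3 and 102 CPM in NFIB mutant tumors, a log2 fold change of 0.01 with a 95% interval of -0.27 to 0.28. Fam168a had 0.03 (-0.26 to 0.32), Arih1 0.15 (-0.13 to 0.44) and Cox6b1, a subunit of cytochrome c oxidase, -0.17 (-0.44 to 0.11) on the same scale. Cfdp1, Slc31a1, Atxn7l3, Ddx46, Preb and Gak had intervals of like width, and those of Slc31a1, Atxn7l3, Ddx46, Preb and Gak did not include 0, so that being not called means under the threshold in size and not without change.

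Transcripts outside protein-coding genes were more often lower. Of 13935 tested protein-coding genes 3264 rose and 3018 fell. Of 317 tested lincRNAs 60 rose and 126 fell, of 328 antisense genes 34 rose and 137 fell, and of 31 sense intronic genes 1 rose and 20 fell. Reads that fell in no annotated gene were at most 12.2% of the reads of TKO libraries and 5.17% of those of NFIB mutant libraries, without overlap between the groups, and genes with at least 1 count numbered 20701 to 21448 and 17830 to 19552. The strand setting of the counting is not stated, so reads of an antisense gene and its partner cannot be told apart, and the part of these read shares in the falls was not tested.

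Set against the 3 libraries of TKO tumors with conditional deletion of Carm1 in the same fit, the NFIB mutant libraries had no gene called by edgeR's quasi-likelihood test (smallest adjusted p = 0.115), with 1414 genes at an unadjusted p under 0.05. DESeq2's Wald test called 184 higher and 270 lower, and limma voom 4 and 2. With at least 10 counts in every library edgeR called 3 and 2, and without CARM1 knockout replicate 1 it called 2 and 0. A missing call does not show that the mutants act alike. Both mutants share the TKO libraries as their control.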

How the data were processed

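RNA-seq reads of 3 TKO, 3 TKO;Nfib R388K and 3 TKO;Carm1 knockout tumors were trimmed with Trim Galore, aligned to mm10 with HISAT2 and counted per gene with htseq-count by the authors, who deposited 1 table of raw counts. The strand setting is not given in the sources used here. Columns were assigned to genotypes by the letters in their names (C, N and KO), and 5 summary entries that name no gene were left out. Further columns of ATAC-seq counts in the series were not used here.

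The counts were filtered with filterByExpr, scaled by TMM and fitted over all 9 libraries with the quasi-likelihood test of edgeR 4.0.16 in R 4.3.3, with Benjamini-Hochberg adjustment. Calls needed an adjusted p under 0.1 and a log2 fold change of at least 0.8 in size. Standard errors were derived from the F statistic. DESeq2 1.42.0, limma 3.58.1, other scalings and filters and leaving out each library were the alternatives. Library sizes ran from 15848866 to 20915057 reads on genes over the 9 libraries. Intervals of count ratios and detection limits cover counting error only, and those of log2 fold changes come from the spread between libraries in the fit.

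Named genes were the 4 most abundant of each role in a list, lineage transcription factors, the 10 largest rises and falls with at least 10 counts in all 6 libraries, the 10 most abundant on and off genes, the 10 steadiest genes and the alleles of the model. Genes outside this rule are said to be, apart from some cell type markers. The members and lists were chosen with earlier results of these data known. Promoters of 11398 of 15510 tested symbols were matched to RefSeq on GRCm38.p6. Some genes are not reported here.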

Additional observations from a re-analysis of the deposited data

How the results depend on the processing

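For the test over all genes, DESeq2 size factors, library totals, limma voom, DESeq2's Wald test, no filter on low counts and the fit on 6 libraries all gave counts within 1.5 times of 3459 higher and 3640 lower. With at least 10 counts in every library, which tests fewer genes, 2244 rose and 2276 fell. The members of the lists that fell went from 153 to 72 of 870, where the 870 still include members that this filter left untested. Medians of the neuroendocrine, synaptic, channel and neuronal cytoskeleton lists were then -2.90, -1.77, -1.24 and -1.92. They rest on 7 of 35, 13 of 27, 5 of 29 and 10 of 30 members, because the filter drops any gene that is nearly absent in a library. They are therefore medians of other sets of genes than in the main fit. Leaving out 1 library gave 3132 to 3662 genes higher and 2902 to 3477 lower, with 333 to 370 list members higher and 127 to 155 lower. At an adjusted p under 0.05 and a log2 fold change of at least 1, 2716 rose and 2662 fell.

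Against the CARM1 knockout, 3 genes were called higher and 2 lower with at least 10 counts in every library, 184 and 270 with DESeq2 and 4 and 2 with limma voom, and leaving out 1 library gave 0 to 2 higher and none lower. The cause was not tested.

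Of 338 genes under the naming rule 236 were called, and 168 of these kept their call under every alternative that tested them. Fcgr1, a macrophage receptor with a log2 fold change of 2.75, turned to -3.96 without NFIB mutant replicate 2 and ran from -3.96 to 3.54 over the libraries left out. With the replicate block, 3232 genes rose and 3276 fell, and 348 and 145 list members. Deviations of same-numbered libraries correlated at 0.00764, -0.0473 and 0.0585, so the numbers were not taken as pairs.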
